A study of Mus musculus with 9 samples.

Results

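The L1Md families are the younger LINE-1 families of the mouse genome, and those other than L1Md_T were taken from the table of repeat expression by name. Every row whose name starts with L1Md was used except L1Md_T itself. This gave 1489 of the 38385 entries of the table, in 5 of its 1042 families. L1Md_A holds 997 of these entries, L1Md_F2 303, L1Md_F3 94, L1Md_Gf 58 and L1Md_F 37. The rule used the name alone, but it was set with earlier results of these data known. The table itself lists just entries with a value above 0 in all 9 libraries.

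LINE-1 elements are retrotransposons that copy themselves through an RNA intermediate. A full-length mouse element carries its own promoter at its 5′ end, made of short tandem units called monomers, and codes for an RNA-binding protein and for a protein with endonuclease and reverse transcriptase activity. The families are named after the type of monomer, and the A, Gf and T types hold elements that can still move, whereas the F types are older and are thought to have largely lost this ability. Routes that keep LINE-1 promoters down in embryonic cells include DNA methylation, H3K9 methylation placed through the TRIM28 and SETDB1 pathway, and the HUSH complex. Which route acts on which family was not examined.

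RNA-seq of poly(A) RNA was made from wild-type (WT) J1 mouse embryonic stem cells (ESCs), from Dnmt1-/- ESCs derived from them (1KO), and from 1KO ESCs that carry a transgene for catalytically inactive DNMT1 (1KO+1CI). DNMT1 is the enzyme that maintains DNA methylation after replication, and the transgene is driven by the CAG promoter and linked to a zeocin resistance gene. Each line was sequenced at day 0 as ESCs grown with serum and LIF on mitomycin-treated feeder fibroblasts, and at days 2 and 4 of differentiation toward epiblast-like cells, which began with embryoid bodies and went on as adherent culture. There was 1 library for each of the 9 combinations of line and day, so no value here has a replicate error, and the intervals given cover counting error only. The study made more than 1 clone of 1KO+1CI, and the column of that line carries a number that the sources used here do not explain.

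The values are FPKM, that is reads relative to the length of an entry and to the size of the library. Most FPKM values of an entry were whole multiples of 1 step, which is the FPKM that 1 read is worth, and the reads and the length behind an entry were recovered from that step. A step was found for 1461 of the 1489 entries (98.1%), and for 3 of them after each value had been shifted at random. The libraries hold between 20300000 and 28000000 reads if 1 step is 1 read. If both ends of a pair were counted, the intervals are narrower than the counting error. The same holds if a read was counted in more than 1 entry.

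Whether the L1Md_A entries are single genomic copies could not be told from their levels and lengths. The 248 listed L1Md_A entries numbered 1 to 250 had a median of 1.01 FPKM over the 9 libraries. The 31 entries with numbers above 1500 had a median of 0.121 FPKM. Their recovered lengths had a median of 2177 bases over the family (interquartile range 1800 to 2690) and of 4025 bases above number 1500. In L1Md_A the level thus went down with the number that the entry carries, as the plot of L1Md_A entries by number shows. L1Md_F2 did not have this pattern, with a median of 0.253 FPKM and 1492 bases for numbers 1 to 250 and of 0.332 FPKM and 1237 bases above 1500. What an entry adds up is not given in the sources used here, and its genomic position is not in the table. Comparisons between libraries are made within the same entries, and levels are not read as levels per copy. No listed value is 0, so entries without reads in some library are not part of the table. The part of this in the levels and lengths by number was not tested.

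**Figure D1:**
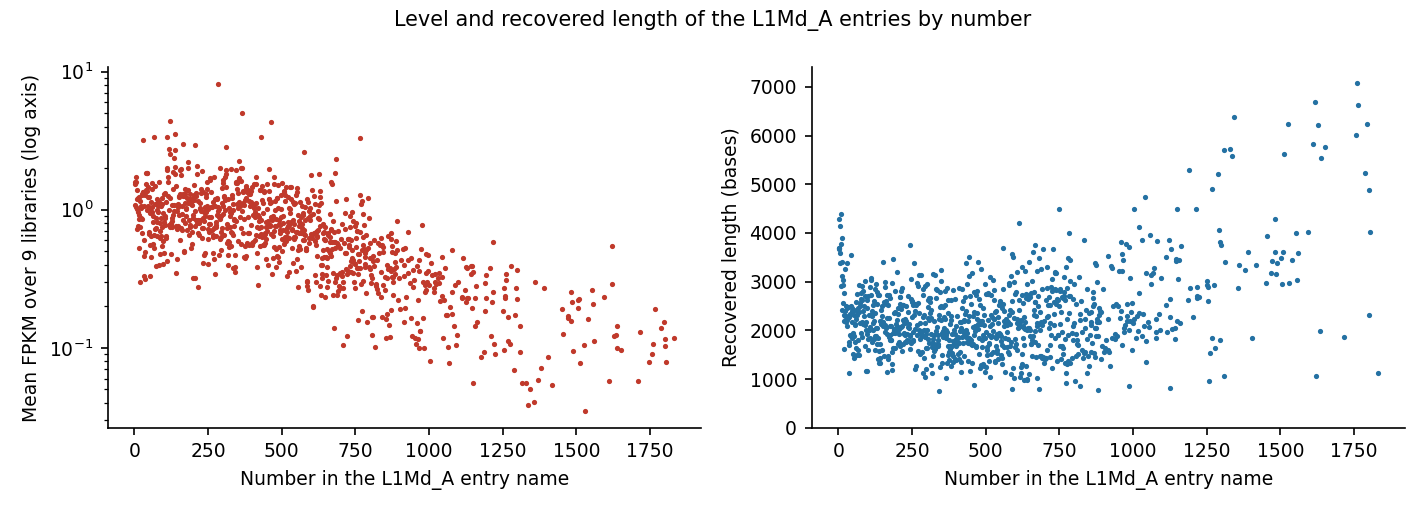
Mean FPKM over the 9 libraries (left, log axis) and recovered length in bases (right) of the L1Md_A entries, by the number in the entry name, with 1 point for each entry. The median level is 1.01 FPKM for numbers 1 to 250 and 0.121 FPKM above 1500, where the median length is 4025 bases.

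The lines and stages were checked in the gene table of the same libraries. Dnmt1 stood at 74.0, 80.4 and 48.5 FPKM in WT at days 0, 2 and 4. It stood at 13.7, 17.4 and 12.3 FPKM in 1KO, and at 315, 129 and 158 FPKM in 1KO+1CI. The knockout thus kept some Dnmt1 reads, and the transgenic line had the most at each day. The 8 ESC markers together lay between 899 and 1738 FPKM, with the lowest sum in 1KO+1CI at day 4. Of the 8 feeder fibroblast markers 7 were listed, and Lum was not. Their sum was 91.9, 181 and 207 FPKM in WT, 1KO and 1KO+1CI at day 0, and between 12.3 and 27.6 FPKM later. Fewer cells that express an element and less RNA per cell cannot be told apart in these bulk samples.

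L1Md_A, the largest of the 5 families, was highest at day 2 in each line and lower in 1KO than in WT at each day. Its mean over 997 entries was 0.657 FPKM in WT, against 0.423 in 1KO and 0.732 in 1KO+1CI at day 0. At day 2 it was 1.67 FPKM in WT, against 1.14 in 1KO and 1.31 in 1KO+1CI, and at day 4 it was 0.505, 0.291 and 0.314 FPKM. The 3 day 2 libraries lay above all 6 others. The median over entries had the same order, with 1.40 FPKM in WT at day 2 against 0.547 at day 0 and 0.421 at day 4. The number of L1Md_A entries at 1 FPKM or more in WT was 182 at day 0, 667 at day 2 and just 79 at day 4.

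L1Md_Gf, the other young family besides L1Md_A, had the larger ratio of day 2 to day 0 in each line, and L1Md_A the lower ratio of day 4 to day 2. Its mean over 58 entries was 0.377 FPKM in WT, against 0.247 in 1KO and 0.367 in 1KO+1CI at day 0. At day 2 it was 1.47, 0.862 and 0.994 FPKM, and at day 4 it was 0.499, 0.336 and 0.355 FPKM. As for L1Md_A, the day 2 libraries lay above the other 6 and WT lay above 1KO at each day. At days 2 and 4 the 1KO+1CI libraries stood nearer to 1KO than to WT.

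The older F families were flatter. L1Md_F stood at 0.567, 0.536 and 0.703 FPKM in WT, 1KO and 1KO+1CI at day 0, at 0.876, 0.853 and 0.968 FPKM at day 2, and at 0.739, 0.589 and 0.629 FPKM at day 4. L1Md_F2 stood at 0.687, 0.634 and 0.661 FPKM at day 0, at 0.992, 0.947 and 0.874 FPKM at day 2, and at 0.755, 0.610 and 0.564 FPKM at day 4. L1Md_F3 stood at 0.811, 0.827 and 0.959 FPKM at day 0, at 1.11, 1.10 and 1.05 FPKM at day 2, and at 0.919, 0.656 and 0.664 FPKM at day 4. As deposited, day 2 was again the highest day of each line in these families, and at day 4 both lines without active DNMT1 lay below WT. When the libraries were rescaled so that the median repeat entry was level, day 4 in WT lay above day 2 for L1Md_F and L1Md_F3, at 1.08 and 1.06 times its mean FPKM, and day 2 in 1KO+1CI lay below day 0 for L1Md_F3, at 0.941 times. Single entries carried much of these means. L1Md_F entry 180 made up 26.8% to 44.7% of the FPKM summed over its family, L1Md_F3 entry 338 made up 19.7% to 31.4%, and L1Md_F2 entry 455 made up 15.2% to 22.0%. In L1Md_A the highest entry, number 285, made up 0.811% to 1.37%.

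**Figure D2:**
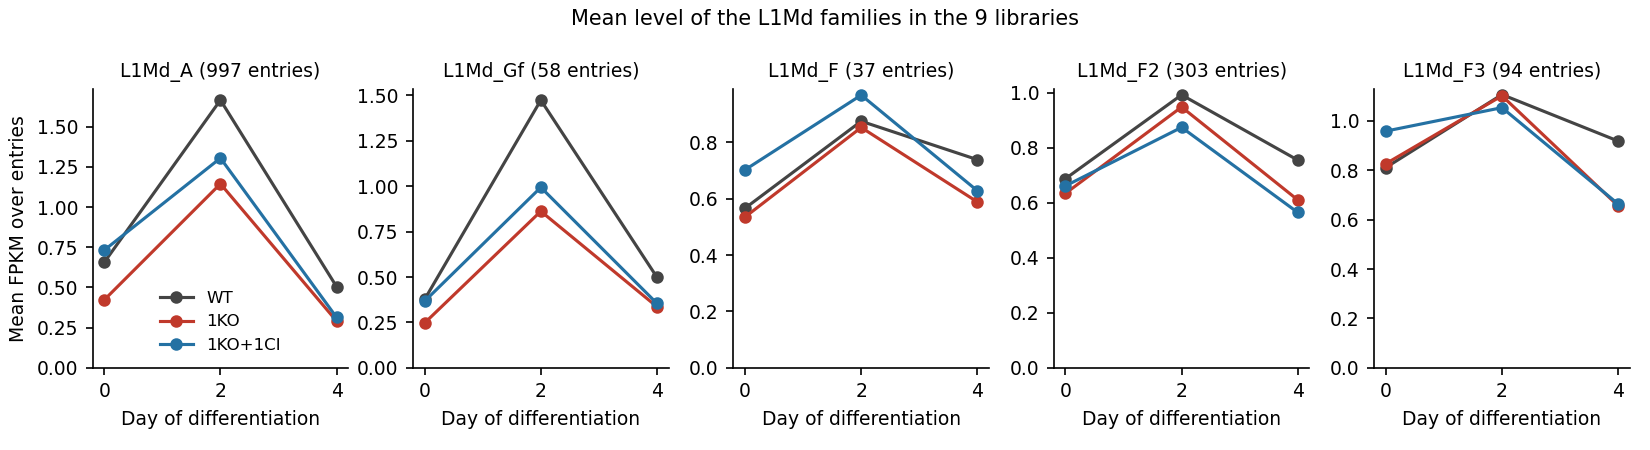
Mean FPKM over the listed entries of each family against the day of differentiation, with 1 point for each of the 9 libraries, lines joining the days of a cell line, and a separate FPKM scale from 0 in each panel. L1Md_A in WT went from 0.657 to 1.67 and 0.505 FPKM and L1Md_Gf from 0.377 to 1.47 and 0.499 FPKM, whereas the 3 F families varied less.

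The first comparison between lines asked how these families differ without DNMT1. At day 0, L1Md_A had 0.642 times as many reads in 1KO as in WT after scaling to depth (95% interval 0.631 to 0.652). The ratio was 0.685 (0.678 to 0.692) at day 2 and 0.577 (0.566 to 0.590) at day 4. L1Md_Gf gave 0.662 (0.604 to 0.726), 0.575 (0.547 to 0.604) and 0.674 (0.620 to 0.733) at the same days. All 6 intervals lay below 1, with ratios between 0.575 and 0.685. The summed feeder markers were higher in 1KO than in WT at each day, at 181 against 91.9 FPKM, 20.7 against 12.3 FPKM and 15.9 against 14.3 FPKM, and the part of feeder cells in these ratios was not tested.

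The F families were nearer to WT. L1Md_F had ratios of 0.952 (0.866 to 1.05), 0.987 (0.913 to 1.07) and 0.800 (0.731 to 0.875) at days 0, 2 and 4. L1Md_F2 had ratios of 0.865 (0.831 to 0.900), 0.890 (0.861 to 0.921) and 0.823 (0.789 to 0.858). These reads leave out L1Md_F2 entry 455, the highest of the family, for which no step was found. With that entry, the ratios of mean FPKM of L1Md_F2 were 0.922, 0.956 and 0.808. They were 1.03, 0.959 and 0.774 when the libraries were rescaled so that the median repeat entry was level. L1Md_F3 had ratios of 1.01 (0.944 to 1.07), 0.980 (0.926 to 1.04) and 0.761 (0.710 to 0.816). Over all entries with a step, L1Md_F and L1Md_F3 had intervals that included 1 at days 0 and 2. At day 4 each of the 3 intervals of the F families lay below 1. Without the highest entry, the ratios of mean FPKM at days 0, 2 and 4 were 0.871, 0.95 and 0.829 for L1Md_F. They were 0.948, 0.914 and 0.761 for L1Md_F3. Intervals without the highest entry were not computed. Beside them, L1Md_T had ratios of 0.737, 0.646 and 0.700, and the mean FPKM of 2858 entries of older L1 families had ratios of 1.02, 1.01 and 1.05. The median over these older entries was 0.75 FPKM in WT and 0.56 in 1KO at day 0. It was 0.83 and 0.87 FPKM at day 2, and 0.63 and 0.67 FPKM at day 4. At day 0, 61% of the older entries were lower in 1KO, against 57.9% of all repeat entries.

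**Figure D3:**
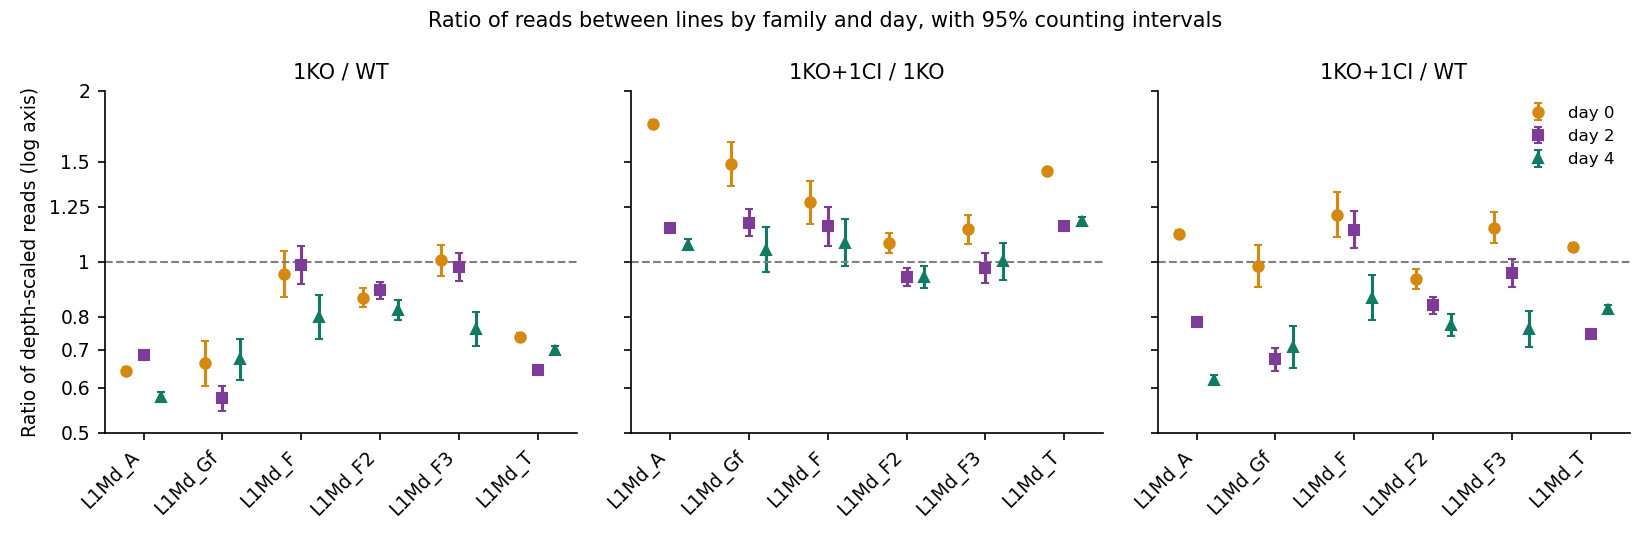
Ratio of depth-scaled reads between lines for each family and for L1Md_T at days 0, 2 and 4 (log axis), with 95% Clopper-Pearson intervals that cover counting error only and a dashed line at 1. L1Md_A and L1Md_Gf lie below 1 in 1KO against WT at each day, and L1Md_A in 1KO+1CI against 1KO is at 1.75 at day 0 and near 1.07 at day 4.

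Because FPKM values this low are compressed by a pseudocount of 1, each difference was also taken with 0.1. On the scale of log2(mean FPKM + 1), L1Md_A differed by -0.22, -0.31 and -0.22 between 1KO and WT at days 0, 2 and 4. The smaller pseudocount gave differences of -0.53, -0.50 and -0.63. L1Md_Gf differed by -0.14, -0.41 and -0.17 with a pseudocount of 1 and by -0.46, -0.71 and -0.46 with 0.1. A threshold of 0.5 on the log2 scale, which the study used for repeat families, was passed by neither family with the larger pseudocount, and by L1Md_A at each day and L1Md_Gf at day 2 with the smaller one. Over all 1489 entries the mean differed by -0.16, -0.24 and -0.19 with a pseudocount of 1.

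Among 371 families with at least 10 entries, ranked with a pseudocount of 0.1, L1Md_Gf had the lowest difference of all between 1KO and WT at day 2. L1Md_A had the lowest at day 4. With a pseudocount of 1, they stood at places 5 and 23 from the lowest in these comparisons. The smaller pseudocount thus decided which family came first. At day 0, L1Md_A and L1Md_Gf stood at places 19 and 26 with a pseudocount of 0.1 and at 59 and 106 with 1. L1Md_T stood at places 45, 4 and 8 at days 0, 2 and 4 with a pseudocount of 0.1.

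Across single entries, 834 of the 997 L1Md_A entries were lower in 1KO than in WT at day 0, where 57.9% of all repeat entries were lower. At day 2 it was 899 entries against 53% of all entries, and at day 4 it was 835 against 50.3%. L1Md_Gf had 42, 54 and 41 of its 58 entries lower at these days. L1Md_F had 22, 19 and 19 of 37, L1Md_F2 182, 147 and 178 of 303, and L1Md_F3 52, 54 and 54 of 94. In the F families this is 48.5% to 60.1% of the entries at a day, which is near the share over all entries.

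The share of entries past the threshold depended on the pseudocount. With a pseudocount of 1, 101 of the 1489 entries were below -0.5 and 10 above 0.5 in 1KO against WT at day 0, where 23% and 15.2% of all repeat entries were. At day 2 it was 211 and 21 entries, against 19.7% and 17.8% of all entries, and at day 4 it was 111 and 15 entries, against 15.2% and 20.6%. These shares of the members lay below those of all entries. With a pseudocount of 0.1, 650, 669 and 712 entries were below -0.5 at days 0, 2 and 4, where 34.3%, 30.2% and 26.4% of all entries were. Those above 0.5 numbered 107, 121 and 129, against 22.8%, 26.1% and 30.8%. With the larger pseudocount 73, 160 and 77 L1Md_A entries were below -0.5 and none was above 0.5 at any day.

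**Figure D4:**
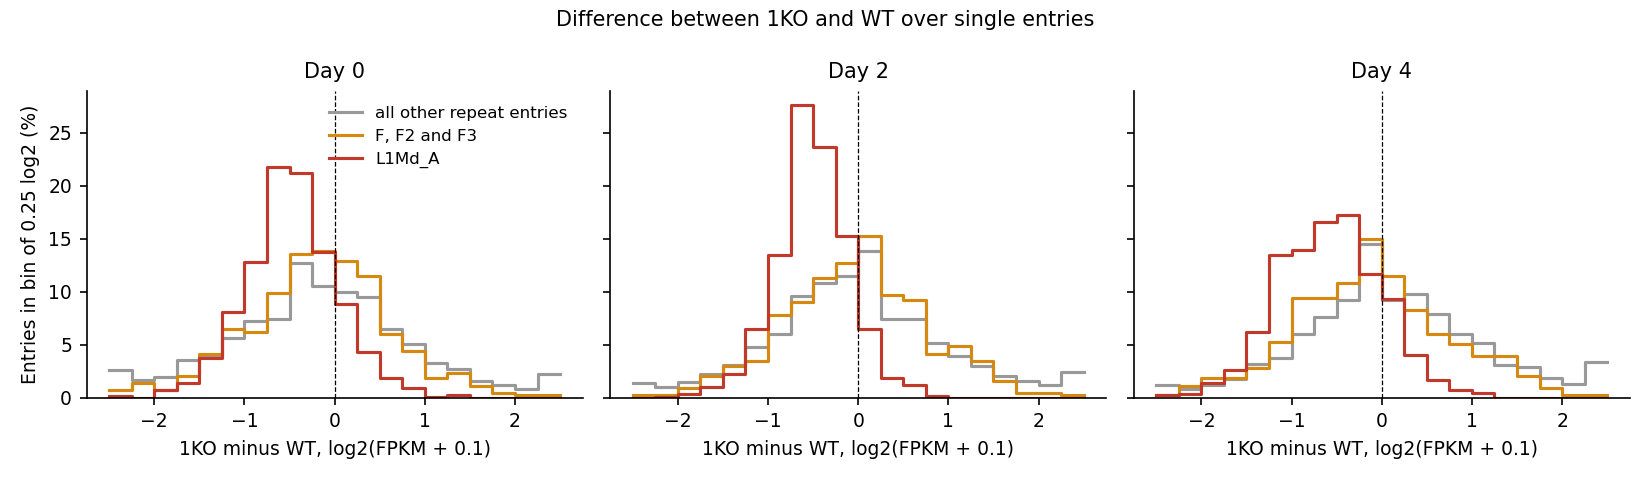
Difference between 1KO and WT in log2(FPKM + 0.1) over single entries at days 0, 2 and 4, as the percentage of entries in each bin of 0.25, with values beyond 2.5 in either direction collected in the end bins. The L1Md_A entries lie to the left of 0, where 834, 899 and 835 of 997 were lower in 1KO, and the F, F2 and F3 entries lie close to all other repeat entries.

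The lower level of L1Md_A in 1KO was much alike over groups of its entries. The entries were split into 4 groups of like size by mean FPKM or by recovered length. The ratio of mean FPKM between 1KO and WT then lay between 0.628 and 0.669 at day 0, between 0.650 and 0.703 at day 2 and between 0.557 and 0.609 at day 4. The entries may share reads and come from the same libraries, so these groups are not independent observations. The highest entry, L1Md_A 285, had 8.98 FPKM in WT, against 4.10 in 1KO and 6.60 in 1KO+1CI at day 0, then 16.5, 13.1 and 12.9 FPKM at day 2, and 5.40, 3.53 and 2.54 FPKM at day 4. L1Md_A entry 365 had 6.18, 2.94 and 4.15 FPKM at day 0, 11.5, 6.43 and 6.79 FPKM at day 2, and 4.41, 1.53 and 1.34 FPKM at day 4. Both were highest in WT at each day. The deepest difference of any member between 1KO and WT at day 2 was that of L1Md_A entry 627, which had 6.35 FPKM (324 reads) in WT and 1.52 FPKM (67 reads) in 1KO. The same entry had 2.78 and 0.682 FPKM at day 0, and 2.05 and 0.420 FPKM at day 4.

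Other single entries with the largest differences belonged to the F families. L1Md_F2 entry 1813 was the deepest at day 4, with 4.76 FPKM in WT, against 0.544 in 1KO and 0.651 in 1KO+1CI. L1Md_F3 entry 620 was the deepest at day 0, with 2.42 FPKM in WT and 0.436 in 1KO, from 57 and 14 reads. The largest difference upward at day 2 was that of L1Md_F2 entry 3551, which had 1.56 FPKM in WT, against 4.34 in 1KO and 4.38 in 1KO+1CI. At day 0 it was L1Md_F3 entry 881, with 0.149 FPKM (5 reads) in WT and 1.09 FPKM (50 reads) in 1KO, and at day 4 it was L1Md_F2 entry 515, with 0.350 and 1.55 FPKM. In these entries of the F families the lower library held between 5 and 57 reads.

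A pair of L1Md_F2 entries with adjacent numbers, 1329 and 1330, had much the same course. Entry 1330 had 3.22, 17.3 and 6.85 FPKM in WT at days 0, 2 and 4, and 2.95, 7.33 and 1.38 FPKM in 1KO. Entry 1329 had 4.44, 14.1 and 4.73 FPKM in WT, and 4.86, 7.21 and 1.10 FPKM in 1KO. In both, 1KO was close to WT at day 0 and far below it at days 2 and 4. The highest L1Md_F2 entry, 455, did not have this course, with 31.6, 46.2 and 43.4 FPKM in WT and 38.7, 63.0 and 32.8 FPKM in 1KO.

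The second comparison between lines asked how the levels differ when 1KO cells carry the inactive DNMT1 protein, and it shares the 1KO libraries with the first. At day 0, L1Md_A had 1.75 times as many reads in 1KO+1CI as in 1KO (1.72 to 1.77). The ratio was 1.14 (1.13 to 1.16) at day 2 and 1.07 (1.05 to 1.10) at day 4. L1Md_Gf gave 1.48 (1.36 to 1.62) at day 0, 1.17 (1.11 to 1.24) at day 2 and 1.05 (0.959 to 1.15) at day 4. The largest ratio of each family was thus that of day 0. The summed feeder markers were higher in 1KO+1CI than in 1KO at each day, at 207 against 181 FPKM, 27.6 against 20.7 FPKM and 27.2 against 15.9 FPKM, and their part in these ratios was not tested. L1Md_F had ratios of 1.27, 1.15 and 1.08, L1Md_F2 of 1.08, 0.941 and 0.941, and L1Md_F3 of 1.14, 0.975 and 1.00. L1Md_T had ratios of 1.44, 1.155 and 1.18. The median over the older L1 entries was 0.56 FPKM in 1KO and 0.74 in 1KO+1CI at day 0, and lower in 1KO+1CI at days 2 and 4. When the libraries were rescaled so that the median repeat entry was level, L1Md_A had ratios of mean FPKM of 1.56, 1.14 and 1.12.

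Of the 997 L1Md_A entries, 886 were higher in 1KO+1CI than in 1KO at day 0, where 57.8% of all repeat entries were higher. At day 2 it was 691 against 48.2%, and at day 4 it was 550 against 50.4%. Of all 1489 entries, 153, 28 and 13 were past 0.5 at days 0, 2 and 4 with a pseudocount of 1, where 19.2%, 15.6% and 14.8% of all repeat entries were. Those below -0.5 numbered 8, 12 and 20, against 13.6%, 15.3% and 16.9%. Among the L1Md_A entries 612, 197 and 205 were past 0.5 when the pseudocount was 0.1, against 32.9%, 25.3% and 24.9% of all entries, so that the excess was seen at day 0. In the same 4 groups of L1Md_A, the ratio of mean FPKM at day 0 lay between 1.67 and 1.82. On the log2(FPKM + 1) scale L1Md_A differed by 0.28, 0.10 and 0.03 at days 0, 2 and 4, and over all 1489 entries the mean differed by 0.21, 0.07 and 0.01.

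The single entries with the largest differences in this comparison were all of F families. At day 0, L1Md_F3 entry 264 had 6 reads in 1KO and 33 in 1KO+1CI, and L1Md_F2 entry 2045 had 58 and 11. At day 2, L1Md_F2 entry 2156 had 8 reads in 1KO and 34 in 1KO+1CI, and L1Md_F entry 103 had 31 and 8. At day 4, L1Md_F2 entry 715 had 69 and 171 reads and L1Md_F2 entry 1806 had 145 and 66. None of these 6 entries was the extreme at more than 1 day.

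Against WT, 1KO+1CI differed from day to day. L1Md_A had 1.12 times the reads of WT in 1KO+1CI at day 0 (1.10 to 1.14), 0.784 (0.776 to 0.792) at day 2 and 0.619 (0.606 to 0.632) at day 4. L1Md_Gf had 0.983 (0.901 to 1.07) at day 0, 0.674 (0.643 to 0.707) at day 2 and 0.708 (0.651 to 0.771) at day 4. The level of 1KO+1CI was thus near that of WT in ESCs for both families and below it later. At day 0, 615 of the 997 L1Md_A entries had a higher value in 1KO+1CI than in WT, where 49.3% of all repeat entries were. At days 2 and 4, 804 and 805 were lower, against 52.3% and 46.2%. Over all 1489 entries, 36, 21 and 11 were above 0.5 on the log2(FPKM + 1) scale at days 0, 2 and 4, against 18.4%, 18.7% and 19.7% of all repeat entries, and 24, 133 and 98 were below -0.5, against 19.6%, 19.4% and 17.1%. The mean over these entries differed by 0.05, -0.18 and -0.19 on this scale.

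Over the days, the young families were at their highest at day 2. L1Md_A had 2.54 times as many reads at day 2 as at day 0 in WT (2.50 to 2.57), against 2.71 (2.67 to 2.75) in 1KO, while the ratio in 1KO+1CI was 1.78 (1.75 to 1.80). L1Md_Gf had 4.02 (3.75 to 4.31), 3.49 (3.23 to 3.77) and 2.76 (2.57 to 2.96). From day 2 to day 4 the ratio of L1Md_A was 0.303, 0.255 and 0.239 in WT, 1KO and 1KO+1CI, and that of L1Md_Gf was 0.335, 0.393 and 0.352. At day 4 L1Md_A lay below its day 0 level in each line, at 0.768, 0.691 and 0.424 times the reads. L1Md_Gf lay above it in WT and 1KO, at 1.35 and 1.37 times the reads, and at 0.970 (0.888 to 1.06) in 1KO+1CI. The summed feeder markers were 91.9, 181 and 207 FPKM at day 0 and 12.3, 20.7 and 27.6 FPKM at day 2. At day 4 they were 14.3, 15.9 and 27.2 FPKM, and the part of feeder cells in the ratios between days was not tested.

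The F families had smaller ratios of day 2 to day 0. The ratio of day 2 to day 0 was 1.50, 1.56 and 1.42 for L1Md_F in WT, 1KO and 1KO+1CI, 1.47, 1.51 and 1.32 for L1Md_F2, and 1.34, 1.30 and 1.11 for L1Md_F3. Of 371 families with at least 10 entries, L1Md_Gf had the highest difference between day 2 and day 0 in WT and in 1KO with a pseudocount of 0.1, and stood at place 4 in 1KO+1CI. L1Md_A stood at places 7, 3 and 31. L1Md_T, with ratios of 3.71, 3.26 and 2.61 in reads, lay between L1Md_A and L1Md_Gf in each line.

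The course over the days was also found entry by entry. In L1Md_A, 985, 976 and 939 of 997 entries were higher at day 2 than at day 0 in WT, 1KO and 1KO+1CI, where 57.3%, 62.6% and 60.2% of all repeat entries were. Between day 2 and day 4, 994, 981 and 990 were lower, against 63.1%, 60.3% and 58.4%. Day 2 was the highest of the 3 days in all 3 lines in 898 L1Md_A entries (90.1%) and 52 L1Md_Gf entries (89.7%), against 17.4% of all repeat entries. L1Md_T shared this, with 1351 of its 1477 entries (91.5%). It was so in 8 entries of L1Md_F (21.6%), 74 of L1Md_F2 (24.4%) and 22 of L1Md_F3 (23.4%). Entries lower in 1KO than in WT at each of the 3 days numbered 652 in L1Md_A (65.4%), 29 in L1Md_Gf, 5 in L1Md_F, 70 in L1Md_F2 and 18 in L1Md_F3, against 18.4% of all repeat entries. L1Md_T had 788 such entries (53%). In the same 5 families, entries higher in 1KO at each day numbered 4, 0, 3, 36 and 11, against 12.4%. The WT library of day 2 was the highest of all 9 in 761 L1Md_A entries and 50 L1Md_Gf entries, against 20.6% of all repeat entries. It was also the highest in 1165 of the 1477 L1Md_T entries.

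**Figure D5:**
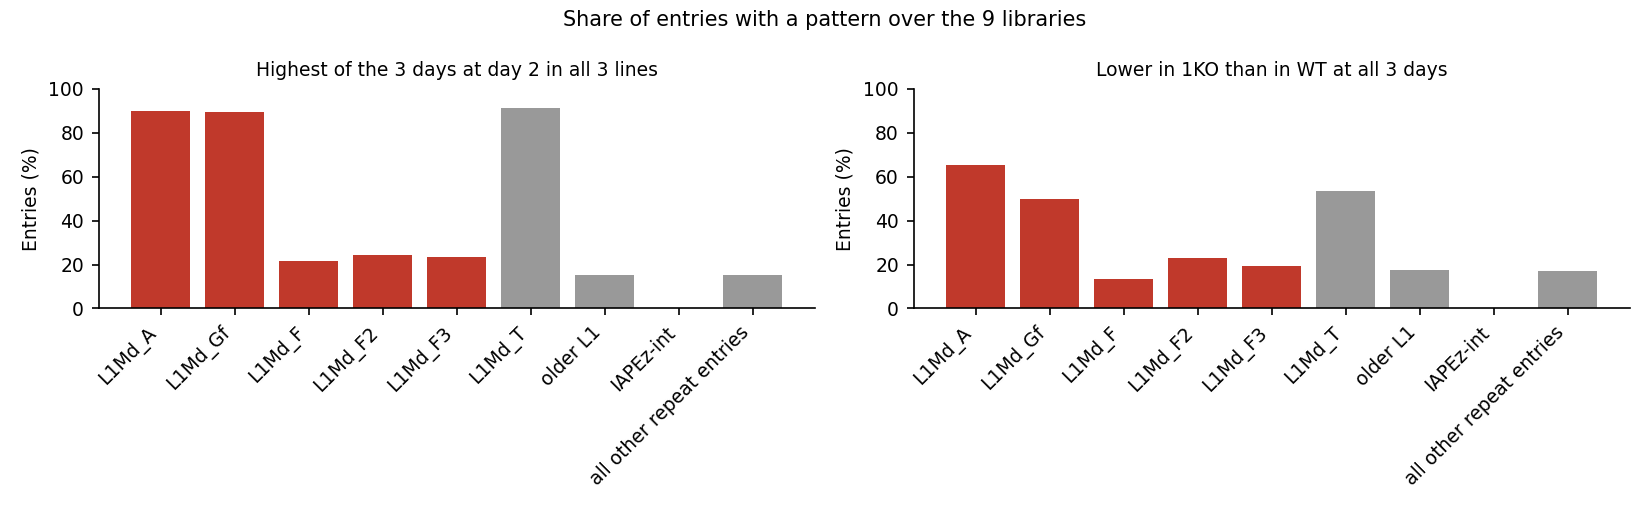
Percentage of entries that were highest at day 2 in all 3 lines (left) and lower in 1KO than in WT at all 3 days (right), for the 5 families in red and for L1Md_T, older L1 families, IAPEz-int and all other repeat entries in grey. L1Md_A and L1Md_Gf reach 90.1% and 89.7% on the left and 65.4% and 50% on the right, and the F families stay at 24.4% or less in both.

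The test that 9 libraries without replicates allow is a fit with line and day as additive terms, made with limma over all 1042 families on log2(mean FPKM + 1). Its error is the departure from equal line differences at all days, with 4 residual degrees of freedom, and the days of a line are not replicate cultures. L1Md_A rose by 0.56 from day 0 to day 2 (SE 0.093, limma, Benjamini-Hochberg adjusted p = 0.0325), and L1Md_Gf rose by 0.66 (SE 0.093, adjusted p = 0.0298). From day 2 to day 4 L1Md_A fell by 0.79 and L1Md_Gf fell by 0.59 (limma, adjusted p = 0.0120 and 0.0236). These were 2 of the 5 families, where 2.88% of all families rose and 7.97% fell in these contrasts. L1Md_F, L1Md_F2 and L1Md_F3 differed by 0.25, 0.22 and 0.16 between day 0 and day 2 and did not pass (limma, adjusted p = 0.133, 0.147 and 0.328). Their differences from day 2 to day 4 of -0.20, -0.24 and -0.26 did not pass either (limma, adjusted p = 0.161, 0.100 and 0.125). None of the 5 families passed between day 0 and day 4 in limma, where 1.73% of all families rose and 3.36% fell and L1Md_A differed by -0.23 with an unadjusted p of 0.0486, the single member under 0.05.

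These calls were not stable to the choice of scale, families or libraries. When families with at least 10 entries alone were fitted, L1Md_F and L1Md_F2 also passed from day 0 to day 2 (limma, adjusted p = 0.0195 for both), and all 5 families passed from day 2 to day 4. When the libraries were rescaled so that the median repeat entry was level, which lowers all day 2 libraries, the differences between day 0 and day 2 became 0.42 for L1Md_A and 0.53 for L1Md_Gf and no longer passed (limma, adjusted p = 0.0668 and 0.0514), while both families still fell from day 2 to day 4 (adjusted p = 0.0234 and 0.0343). When the pseudocount was 0.1, L1Md_Gf alone passed from day 0 to day 2 (limma, adjusted p = 0.0260, against 0.0558 for L1Md_A). Leaving out any library other than WT at day 4 left neither family past the threshold from day 0 to day 2, and without that library 1 passed. From day 2 to day 4 both passed without the day 0 library of WT or of 1KO+1CI, 1 passed without 1KO at day 0, 1KO+1CI at day 2 or WT at day 4, and neither passed without any of the other 4.

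Between lines, none of the 5 families passed in limma. L1Md_A differed by -0.25 between 1KO and WT (SE 0.093, unadjusted p = 0.0334, limma adjusted p = 0.424) and L1Md_Gf by -0.24 (adjusted p = 0.447). They were the 2 of the 5 with an unadjusted p under 0.05 in this contrast, and there was none in the 2 other line contrasts. Of all families, 0.096% rose and 0.096% fell in 1KO against WT, 0% passed in 1KO+1CI against 1KO, and 0.096% rose and 0.096% fell in 1KO+1CI against WT. In 1KO the young families were thus lower by more than the counting error of each pair of libraries. This takes each read as counted in 1 entry. The lower level could not be set against a spread between cultures.

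In the same fit over all 38385 entries, 474 of the 1489 fell from day 2 to day 4 and 2 rose, where 4.47% of all entries fell and 0.735% rose (limma, adjusted p under 0.05). Those that fell were 440 of L1Md_A, 10 of L1Md_Gf, 18 of L1Md_F2, 5 of L1Md_F3 and 1 of L1Md_F. The 5 of L1Md_A with the smallest p were entries 651, 401, 724, 1035 and 399, each of which fell by 0.68 or more. In entry 651 there were 81, 48 and 54 reads at day 2 in WT, 1KO and 1KO+1CI, and 14, 4 and 4 at day 4. The 2 that rose were L1Md_F2 entries 3241 and 515, by 0.61 and 0.77. Entry 515 had 9, 4 and 5 reads at day 2 and 10, 48 and 40 at day 4, so that it stood high at day 4 in both lines without active DNMT1. L1Md_F2 entry 964 fell from day 0 to day 4, by 1.71 (limma, adjusted p = 0.0149), where 1.04% of all entries fell, with 3.27, 2.40 and 3.10 FPKM at day 0 and 0.324, 0.209 and 0.067 FPKM at day 4.

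No member entry passed in the other contrasts of this fit in limma, although 881 had an unadjusted p under 0.05 between day 0 and day 2, 102 in 1KO against WT, 14 in 1KO+1CI against 1KO and 52 in 1KO+1CI against WT. Of all entries, 0.0782% rose and 0.0964% fell from day 0 to day 2, 1.12% rose and 0.0599% fell in 1KO against WT, 0.00261% passed in each direction in 1KO+1CI against 1KO, and 0.727% rose and 0.0625% fell in 1KO+1CI against WT. When the pseudocount was 0.1, 1 L1Md_F2 entry passed downward in 1KO against WT, where 0.0756% of all entries did, and 1 L1Md_A entry in 1KO+1CI against WT, where 0.112% did. Between day 2 and day 4, 323 members then passed downward, where 3.46% of all entries did. The entries of a family may share reads, and their number is not a number of independent observations.

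Genes known to act on LINE-1 elements were read in the same libraries from a list of 28, all of which were found in the gene table. More of them passed the test between days than between lines, which was also so over all genes. Tasor, a subunit of HUSH, stood at 13.1, 13.4 and 16.7 FPKM at day 0 in WT, 1KO and 1KO+1CI, at 28.3, 24.7 and 25.6 FPKM at day 2 and at 13.8, 11.9 and 12.7 FPKM at day 4. It rose by 0.82 on the log2(FPKM + 1) scale from day 0 to day 2 and fell by 0.98 from day 2 to day 4 (limma, adjusted p = 0.00495 and 0.00247). Tasor was thus highest on the day on which L1Md_A and L1Md_Gf were highest. Of the 28 genes 8 rose from day 0 to day 2, namely Tasor and the HUSH partners Pphln1 and Morc2a, Atf7ip, which stabilises SETDB1, the H3K9 methyltransferases Ehmt1 and Ehmt2, and the de novo DNA methyltransferases Dnmt3a and Dnmt3b. Zc3hav1, an antiviral RNA-binding protein, fell by 1.16. Over all genes 7.34% rose and 8.11% fell, and the median difference was 0.24 over the list and 0.01 over all genes.

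From day 2 to day 4, 10 of the 28 genes fell and 2 rose, where 11.7% and 11.2% of all genes did. The methylcytosine dioxygenases Tet1 and Tet2 fell by 1.95 and 2.15 (limma, adjusted p = 0.00154 and 0.00247), and Dnmt3l, a cofactor of the de novo enzymes, fell by 2.32 (adjusted p = 0.00624). Uhrf1, which brings DNMT1 to replicated DNA, the chromatin remodeller Hells, Setdb1, Ehmt2, Atf7ip, Tasor and the HUSH subunit Mphosph8 also fell, and Pphln1 and Samhd1, which restricts reverse transcription, rose. The median difference was -0.31 over the list and 0.00 over all genes. Dnmt3b stood at 73.6, 107 and 87.6 FPKM at day 0 and at 390, 328 and 226 FPKM at day 4. From day 0 to day 4, 5 of the 28 rose and 8 fell, where 11.3% and 12.3% of all genes did, and the lowest of the differences were those of Mov10, an RNA helicase that restricts LINE-1, and Tet2, at -2.31 and -2.28.

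Between lines, Dnmt1 itself was the one gene of the 28 that passed in 1KO against WT, where it fell by 2.13, and in 1KO+1CI against 1KO, where it rose by 3.61 (limma, adjusted p = 0.0161 and 0.0143). Over all genes 0.71% rose and 1.15% fell in the first contrast, and 0.00663% rose and 0% fell in the second. In 1KO+1CI against WT Dnmt1 rose by 1.48 and Atf7ip by 0.52 (limma, adjusted p = 0.0279 and 0.0311), where 1.8% of all genes rose and 2.14% fell. Trim28, the corepressor that recruits SETDB1, had the highest mean of the list at 502 FPKM, and Trex1, a DNA exonuclease, the lowest at 2.95 FPKM. Whether any of these genes had a part in the levels of the L1Md families was not tested.

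Markers of other cell states moved with the same libraries. The 5 epiblast markers summed to between 122 and 143 FPKM at day 0. In WT, 1KO and 1KO+1CI they summed to 173, 357 and 379 FPKM at day 2 and to 589, 540 and 396 FPKM at day 4. Of these sums Dnmt3b alone made up 114.5, 224 and 220 FPKM at day 2 and 390, 328 and 226 FPKM at day 4. The 4 primitive streak markers summed to 4.31, 4.92 and 4.23 FPKM at day 2, to 14.5 FPKM in WT at day 4, and to 74.1 and 87.1 FPKM in 1KO and 1KO+1CI. The 8 primitive endoderm markers summed to 56.1, 73.9 and 81.2 FPKM at day 0 and to 28.0, 29.6 and 54.8 FPKM at day 2. At day 4 the sums were 35.1, 50.5 and 101 FPKM, so that WT and 1KO had their highest endoderm sum at day 0. The streak sums were thus close between lines at day 2 and higher in both lines without active DNMT1 at day 4. At day 2 the epiblast sums were higher in both of these lines than in WT, and the endoderm sum was highest in 1KO+1CI. The part of these markers in the L1Md levels was not tested.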

How the data were processed

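The deposited FPKM values come from poly(A) reads that the authors cleaned with Trim Galore, aligned with HISAT2 (mm10), converted with SAMtools and turned into FPKM per gene and per repeat entry by HOMER (analyzeRepeats.pl). Not given in the sources used here are versions, strand use and what was done with multiply aligned reads, which can move reads between families of like sequence. The members and all gene and marker lists were chosen with earlier results of these data known.

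In the table of genes, 21 of 15095 entries had a date or 0 in place of a name and were left out. Among the members, 2 entries share a name and number. A step was accepted when every value lay within 0.2 steps of a whole number and the step was at least 0.005 FPKM. Absolute depth came from 1331 genes with 1 transcript and a step, of which 654 gave the same depth. Ratios of reads used entries with a step and have Clopper-Pearson intervals.

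Differences were taken in log2(mean FPKM + 1), with 0.1 beside it and a threshold of 0.5. The additive fit used limma (lmFit, eBayes with trend), Benjamini-Hochberg adjustment over all families, entries or genes, and a threshold of 0.05. It had 4 residual and 2.24 prior degrees of freedom. Scripts were tested on simulated data. The text names the 5 highest entries of a family where it describes them, entries called in the fit (up to 5 per contrast and direction) and the extreme entry of each line comparison. Entries 1329 and 1330 were set side by side after their values were seen. Alternatives were pseudocounts of 0.1 and 0.01, other scalings, summaries, minimum levels and thresholds, and leaving out libraries. Python 3.11.15 (numpy 2.4.6, pandas 2.3.3, scipy 1.17.1, matplotlib 3.10.9) and R 4.3.3 (limma 3.58.1) were used. Sequences of the families were not used here.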

Additional observations from a re-analysis of the deposited data

Results flagged for a closer look

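Some differences between lines changed side with the day. Each is a ratio of depth-scaled reads whose counting intervals lay above 1 at one day and below 1 at another, which is what marked it, and with 1 library per line and day the difference between days was not tested. In 1KO+1CI against WT, L1Md_A had ratios of 1.12, 0.784 and 0.619 at days 0, 2 and 4. L1Md_F had 1.21, 1.14 and 0.864 in this comparison, and L1Md_F3 had 1.15, 0.955 and 0.762. In 1KO+1CI against 1KO, L1Md_F2 had ratios of 1.08, 0.941 and 0.941. When the libraries were rescaled so that the median repeat entry was level, the ratio of mean FPKM of L1Md_F2 was 0.940, 0.920 and 0.958, so that this change of side was no longer there. The ratio of L1Md_A was the lowest of the 3 families in 1KO+1CI against WT at each day.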

How the results depend on the processing

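No paired analysis was possible because each group has 1 library and replicate numbers pair none, and the day shared by the lines is a term of the limma fit. Values for 1KO minus WT, then 1KO+1CI minus 1KO, then 1KO+1CI minus WT, each at days 0, 2 and 4, are given in this order. The difference over all 1489 entries (-0.16, -0.24, -0.19, 0.21, 0.07, 0.01, 0.05, -0.18 and -0.19) kept its direction in every alternative run. With a pseudocount of 0.1 it was -0.37, -0.40, -0.49, 0.48, 0.11, 0.11 in 1KO+1CI minus WT at day 0, -0.29 and -0.47, and with 0.01 it was -0.43, -0.43, -0.59, 0.55, 0.12, 0.12, -0.31 and -0.56, with 1KO+1CI minus 1KO at day 4 moving by less than the counting error in both. Entries of at least 0.5 FPKM gave -0.21, -0.29, -0.28 for 1KO minus WT, 0.28 for 1KO+1CI minus 1KO at day 0, and 0.069, -0.22 and -0.26 for 1KO+1CI minus WT. The median over entries gave -0.14, -0.21, -0.14, 0.18 at day 0, and -0.14 and -0.12 for 1KO+1CI minus WT at days 2 and 4. Reads per kilobase gave -0.18 and -0.28 for 1KO minus WT and 0.23 and 0.086 for 1KO+1CI minus 1KO at days 0 and 2. Scaling by genes gave 0.069 and -0.19 for 1KO+1CI minus WT at days 0 and 2. Scaling by repeats, whose factors lay between 0.918 and 1.19, gave -0.10, -0.22 and -0.22 for 1KO minus WT, 0.15 for 1KO+1CI minus 1KO at day 0 and -0.16 for 1KO+1CI minus WT at day 2. Without the highest entry of each family 1KO minus WT at day 2 was -0.26.

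The count of entries past 0.5 (111, 232, 126, 161, 40, 33, 60, 154 and 109) became 757, 790, 841, 872, 456, 590, 578, 577 and 790 with a pseudocount of 0.1, 936, 882, 1029, 1044, 580, 845, 732, 686 and 987 with 0.01, and 4, 6, 10, 4, 0, 1, 7, 9 and 14 at a threshold of 1. Family differences past 0.5 numbered 10 of 90, 28 with a pseudocount of 0.1 and 6 scaled by repeats. In that scaling 7 of the 90 changed sign, all with a size of 0.135 or less as deposited. L1Md_A at 1KO over WT was then 0.721, 0.690 and 0.551, and at day 2 over day 0 it was 2.19, 2.09 and 1.52.

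In the limma fit, 2 families passed from day 0 to day 2, 1 with a pseudocount of 0.1 or 0.01, 0 scaled by repeats, 4 when families with at least 10 entries were fitted, and 0 to 1 when a library was left out. From day 2 to day 4 it was 2, 5 with at least 10 entries, and 0 to 2 when a library was left out. The fit over entries passed 1 entry in 1KO minus WT, 1 in 1KO+1CI minus WT and 2 from day 0 to day 4 with a pseudocount of 0.1, against 0, 0 and 1. Scaling by repeats in the family differences and family fit, the removal of the highest entries and the entry fit with a pseudocount of 0.1 were chosen after seeing the data. The cause of these moves was not tested, except that a smaller pseudocount widens differences by construction.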
